A study of Homo sapiens with 10 samples.

Results

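The integrated stress response regulators described here are 10 genes listed by symbol, and 9 of them have a row among the 12540 genes of the table: the bZIP transcription factors ATF4, ATF5, ATF3, DDIT3, CEBPB and CEBPG, the pseudokinase TRIB3, the glutathione-degrading enzyme CHAC1 and the phosphatase subunit PPP1R15A. NUPR1 (ENSG00000176046, chromosome 16, 28532708 to 28539174), a small stress-induced nuclear protein, has no row and was not analysed here. All libraries came from SRA01-04, an immortalised line of human lens epithelial cells. Libraries OE1 to OE5 were made from cells carrying a RORα expression plasmid, and EV1 to EV5 from cells carrying the empty plasmid. Both groups were exposed to 10 µM selenite for 24 h, starting 48 h after transfection, so no value here describes cells without selenite or without a plasmid. Nothing in the labels tells separate cultures among the replicates, so p-values measure only the spread between these libraries, which may be technical.

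In the integrated stress response, kinases that sense amino acid shortage, endoplasmic reticulum stress, double-stranded RNA or heme and mitochondrial stress phosphorylate the initiation factor eIF2. General translation then falls, while mRNAs with short upstream reading frames, such as those of ATF4, ATF5, DDIT3 and PPP1R15A, are translated better. ATF4 pairs with C/EBP factors on composite sites and induces further regulators, among them CHOP (the product of DDIT3), ATF3, TRIB3 and CHAC1, and PPP1R15A closes the loop by directing a phosphatase to eIF2. Much of this control acts on translation, which mRNA counts do not measure.

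Library totals lay between 17475342 and 21956761 counts. RORA, the gene of the plasmid, averaged 41.3 ± 2.21 CPM (counts per 1e+06 counts of the library, after scaling) in the overexpression libraries and 15.0 ± 2.29 CPM in the empty vector libraries (SD, n = 5 each), without overlap (log2 fold change 1.46, edgeR adjusted p = 4.35e-20; 0.73 on the log2(FPKM + 1) scale). Of the lens epithelial markers, 6 of 15 were in the table, and the defining genes FOXE3, PROX1 and CRYAA were not analysed here. The 6 summed to 2133 to 2172 CPM in overexpression libraries and 1570 to 1666 CPM in empty vector libraries. Of these 6, 1 was higher, 1 lower and 4 not past the threshold, against 28.6% higher and 27.5% lower among all genes tested. The higher one was VIM, the vimentin gene, which holds most of that sum and is not specific to lens (2065 ± 12.6 CPM in overexpression libraries and 1526 ± 40.3 CPM in empty vector libraries, log2 fold change 0.44, edgeR adjusted p = 4.43e-19). PAX6, the eye field regulator, stood at 20.9 ± 1.91 CPM in overexpression libraries and 19.6 ± 1.82 CPM in empty vector libraries, a difference that did not pass the test. CRYAB, the αB-crystallin gene, fell and was near 0, with 0.370 ± 0.178 CPM in overexpression libraries and 1.43 ± 0.292 CPM in empty vector libraries. The 2 lens fibre markers present, of 8 listed, summed to 6.73 to 8.92 CPM in overexpression libraries and 8.64 to 11.4 CPM in empty vector libraries. Fibroblast markers moved with the groups: of 11 present, from 13 listed, 10 fell, against 27.5% of all genes tested, TWIST1 did not pass, and their summed level was 1120 to 1242 CPM in overexpression libraries against 3228 to 3467 CPM in empty vector libraries. The 2 immune markers present, of 10 listed, summed to 2.16 to 3.12 CPM in overexpression libraries and 4.09 to 5.70 CPM in empty vector libraries. The 1 endothelial marker present, of 6, stood at 2.87 to 3.255 CPM in overexpression libraries and 5.30 to 6.90 CPM in empty vector libraries. The part of these markers in the results below was not tested, and fewer cells of a type and less RNA per cell cannot be told apart in such libraries.

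All 9 regulators rose in RORα-overexpressing cells. TRIB3, CHAC1 and ATF3 had the largest log2 fold changes, at 1.78, 1.52 and 1.41, CEBPB followed at 1.03, and ATF4 itself reached 0.63. All 9 passed the threshold, an edgeR quasi-likelihood p under 0.05 after Benjamini-Hochberg adjustment. Of 12520 genes tested, 28.6% passed it as higher, 27.5% as lower and 56.1% in either direction. At least 2-fold higher levels were found for 4 of the 9, and for 3.28% of all genes tested. For all 9 genes every overexpression library stood above every empty vector library, which held for 20.8% of all genes tested. The median log2 fold change was 0.79 over the 9 genes and 0.00 over all genes tested. Together the 9 genes took 0.129% to 0.135% of the counts of an overexpression library and 0.0705% to 0.0727% of those of an empty vector library.

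**Figure D1:**
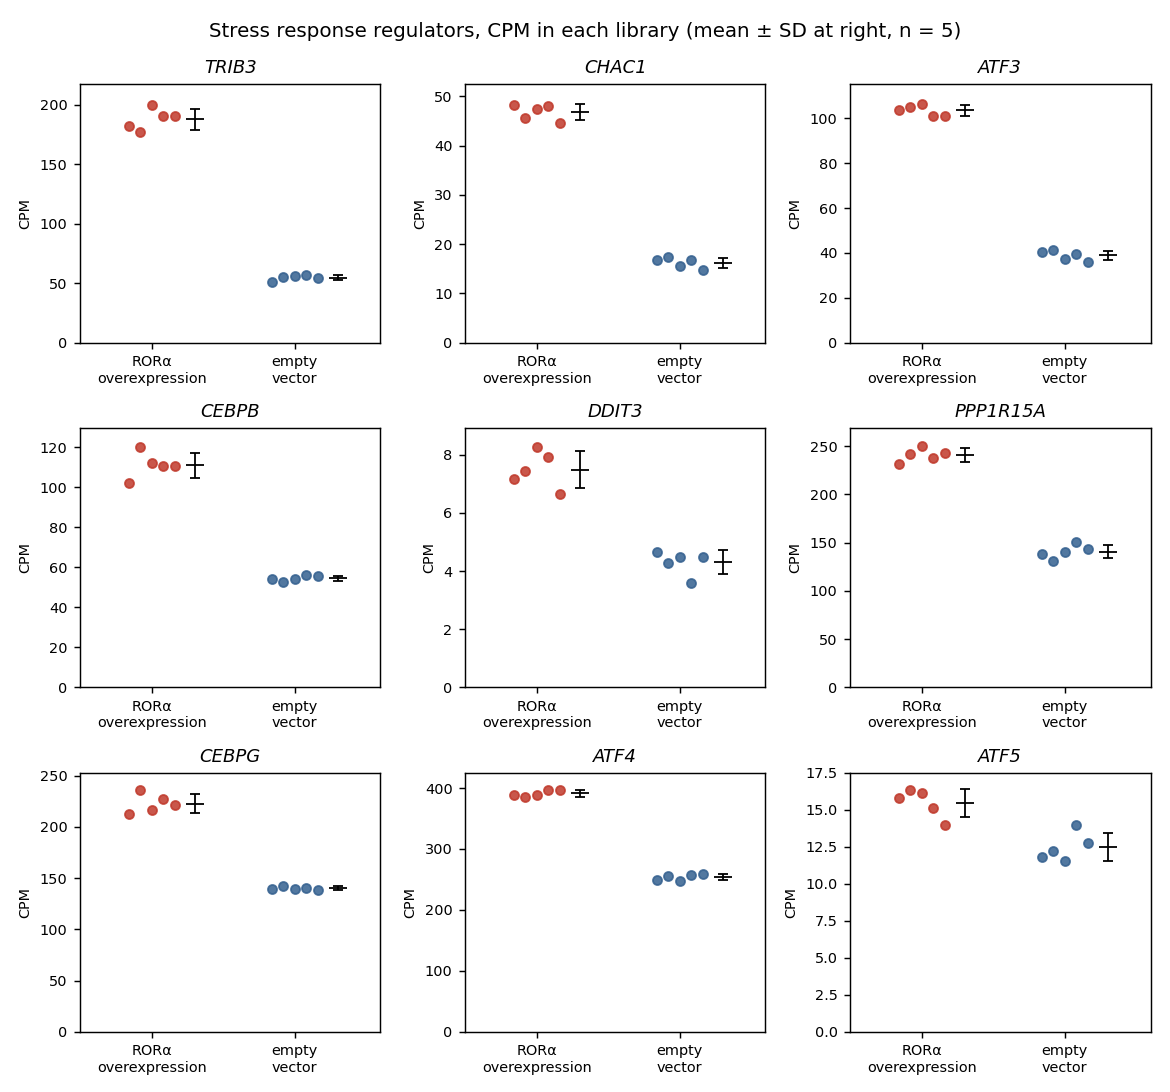
CPM of each regulator in each library, with 5 RORα overexpression libraries on the left and 5 empty vector libraries on the right of each panel, and the mean ± SD beside the points. The groups do not overlap in any panel, and the gap is widest for TRIB3 (120 CPM) and ATF4 (126 CPM) and is 0.01 CPM for ATF5.

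ATF4 (ENSG00000128272, chromosome 22, 39519695 to 39522685, plus strand, GRCh38), the central transcription factor of the response, had 389, 385, 389, 397.5 and 397 CPM in OE1 to OE5, against 249, 255, 248, 257 and 259 CPM in EV1 to EV5. The groups were far apart, the lowest overexpression library standing 126 CPM above the highest empty vector library. ATF4 averaged 391.5 ± 5.52 CPM in overexpression libraries and 253.5 ± 4.80 CPM in empty vector libraries (SD, n = 5 each). Relative to empty vector this was a log2 fold change of 0.63 (standard error, SE, 0.029, 1.54-fold, edgeR adjusted p = 3.05e-21). It was also the steadiest of the 9 within the overexpression group, with a coefficient of variation of 1.41%, close to the 1.14% that counting alone gives at its depth.

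ATF5 (ENSG00000169136, chromosome 19, 49928702 to 49933935, plus strand), a relative of ATF4 known for the mitochondrial stress response in mammalian cells, had the smallest rise. It had 15.8, 16.3, 16.1, 15.1 and 13.96 CPM in OE1 to OE5, against 11.8, 12.2, 11.5, 13.95 and 12.8 CPM in EV1 to EV5. OE5, the lowest overexpression library, and EV4, the highest empty vector library, nearly met. That gave a log2 fold change of 0.31 (SE 0.079, edgeR adjusted p = 0.000868). Of its exon bases, 21.2% are shared with NUP62, a nucleoporin gene on the opposite strand, and 2.54% with IL4I1. NUP62 and IL4I1, chosen after their values were seen, rose 1.30-fold and 2.44-fold. Without strand, reads on the shared bases cannot be told apart.

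The C/EBP partners of ATF4 differed in size. CEBPB (ENSG00000172216, chromosome 20, 50190734 to 50192689, plus strand), a single-exon C/EBP factor induced by stress and inflammatory signals, had 102, 120, 112, 110.5 and 110.3 CPM in OE1 to OE5, against 54.1, 52.5, 54.1, 55.9 and 55.6 CPM in EV1 to EV5. OE2 was highest and OE1 lowest in their group, and OE1 stood 46.2 CPM above EV4, the highest empty vector library. Between the groups the log2 fold change came to 1.03 (SE 0.043, edgeR adjusted p = 1.18e-22). CEBPB makes activating and inhibitory proteins from 1 mRNA, which counts do not separate, and 11.8% of its exon bases are shared with an antisense gene.

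CEBPG (ENSG00000153879, chromosome 19, 33373330 to 33382686, plus strand), a C/EBP factor without a strong activation domain that binds DNA as a partner of ATF4, had 212, 236, 217, 227 and 221 CPM in OE1 to OE5, against 139, 143, 139.5, 141 and 138 CPM in EV1 to EV5. Its empty vector values were the closest together of the 9 genes, with a coefficient of variation of 1.203%. That is below the 1.93% that counting alone gives at its depth, so it is not a trait of the gene. Relative to empty vector this was a log2 fold change of 0.67 (SE 0.034, 1.59-fold, edgeR adjusted p = 7.43e-20).

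DDIT3 (ENSG00000175197, chromosome 12, 57516588 to 57521737, minus strand), which encodes CHOP, the factor tied to cell death under lasting stress, was counted least. It had 157, 158, 151, 139 and 131 counts in OE1 to OE5, against 86, 86, 91, 63 and 88 counts in EV1 to EV5. Scaled to the libraries these were 7.16, 7.43, 8.26, 7.94 and 6.65 CPM in OE1 to OE5 and 4.67, 4.29, 4.47, 3.60 and 4.50 CPM in EV1 to EV5. OE3 was highest, OE5 lowest in its group, and EV4 lowest of all, with a gap of 1.98 CPM between the groups. That gave a log2 fold change of 0.79 (SE 0.12, 1.73-fold, edgeR adjusted p = 3.27e-07). Its coefficients of variation, 8.47% in overexpression and 9.68% in empty vector libraries, were near the 8.24% and 10.99% of counting alone. Other annotated genes share 39.6% of the DDIT3 exon bases, 27.2% being shared with the methionyl-tRNA synthetase gene MARS1 on the opposite strand. The sources used here do not say how reads on 2 genes were counted, so the DDIT3 level is uncertain. On the log2(FPKM + 1) scale, which understates low genes, the DDIT3 log2 fold change was 0.41. MARS1, chosen after its values were seen, stood at 318 ± 16.1 CPM in overexpression libraries and 302 ± 11.1 CPM in empty vector libraries, with overlapping groups (edgeR adjusted p = 0.0585).

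ATF3 (ENSG00000162772, chromosome 1, 212565334 to 212620777, plus strand), a stress-induced bZIP factor that can repress its targets, had 104, 105, 106, 101.2 and 101.1 CPM in OE1 to OE5, against 40.3, 41.3, 37.4, 39.3 and 36.2 CPM in EV1 to EV5. The overexpression values were the tighter group, with a coefficient of variation of 2.28%, against 5.37% in empty vector libraries. Between the groups the log2 fold change came to 1.41 (SE 0.044, 2.66-fold, edgeR adjusted p = 5.82e-27).

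TRIB3 (ENSG00000101255, chromosome 20, 362835 to 397559, plus strand), a pseudokinase that is induced by ATF4 and CHOP and dampens both, rose most. It had 182, 177, 199.9, 190.5 and 190.4 CPM in OE1 to OE5, against 51.3, 55.2, 55.9, 56.7 and 54.2 CPM in EV1 to EV5. The lowest overexpression library was 120 CPM above the highest empty vector library. Relative to empty vector this was a log2 fold change of 1.78 (SE 0.040, 3.44-fold, edgeR adjusted p = 9.95e-32), which placed TRIB3 at rank 112 of 12520 genes ordered by rise.

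CHAC1 (ENSG00000128965, chromosome 15, 40952962 to 40956519, plus strand), a γ-glutamyl cyclotransferase that breaks down glutathione, had 48.2, 45.5, 47.5, 48.0 and 44.5 CPM in OE1 to OE5, against 16.7, 17.3, 15.7, 16.8 and 14.8 CPM in EV1 to EV5. OE5 and EV5 were the lowest of their groups. That gave a log2 fold change of 1.52 (SE 0.059, 2.88-fold, edgeR adjusted p = 7.45e-24).

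PPP1R15A (ENSG00000087074, chromosome 19, 48872392 to 48876057, plus strand), which encodes GADD34, the inducible subunit that brings protein phosphatase 1 to eIF2, had 231, 242, 249.8, 238 and 243 CPM in OE1 to OE5, against 138, 131, 140.4, 150.1 and 143 CPM in EV1 to EV5. EV4 was highest of its group, 81.2 CPM below OE1, the lowest overexpression library. Between the groups the log2 fold change came to 0.78 (SE 0.035, 1.71-fold, edgeR adjusted p = 1.85e-21). PPP1R15B, its constitutive counterpart, also rose, with 142.5 ± 6.22 CPM in overexpression libraries and 103 ± 2.32 CPM in empty vector libraries (log2 fold change 0.47, edgeR adjusted p = 5.03e-14).

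No library led the others throughout. Among the 9 genes, OE3 was the highest overexpression library for 4, OE2 for 3, OE1 for 1 and OE4 for 1, while OE5 was lowest for 4, OE1 for 3 and OE2 for 2. EV4 was the highest empty vector library for 4 genes and EV2 for 3, with EV1 and EV5 each highest for 1. The coefficient of variation ran from 1.41% for ATF4 to 8.47% for DDIT3 in overexpression libraries, and over the 9 genes from 1.203% to 9.68% in empty vector libraries.

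**Figure D2:**
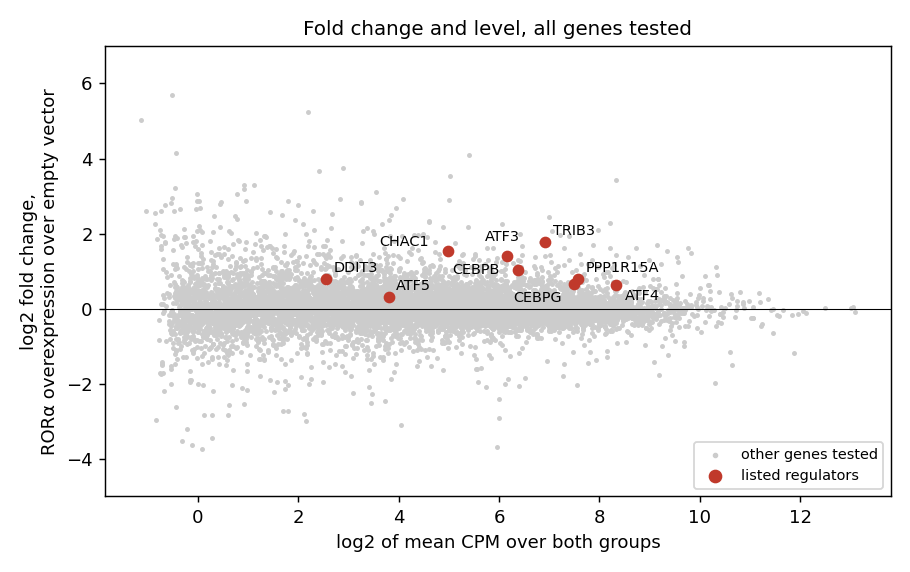
Log2 fold change (RORα overexpression over empty vector, vertical) against log2 of the mean CPM over both groups (horizontal) for the 12520 genes tested in grey and the 9 regulators in red. All 9 lie above 0, with TRIB3 highest at 1.78 and ATF5 lowest at 0.31.

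Per length, ATF4 was the most abundant of the 9 mRNAs in both groups. Levels were taken as CPM per kilobase of the union of annotated exons, which understates genes whose longer transcripts are not made. In overexpression libraries the order was ATF4 (156 ± 2.197), PPP1R15A (77.8 ± 2.21), CEBPB (56.7 ± 3.22), TRIB3 (54.7 ± 2.57), CEBPG (50.5 ± 2.11), ATF3 (25.6 ± 0.584), CHAC1 (22.7 ± 0.794), DDIT3 (5.73 ± 0.485) and ATF5 (5.24 ± 0.324), all in CPM per kilobase (SD, n = 5). Of neighbours in that order, CEBPB and TRIB3, TRIB3 and CEBPG, and DDIT3 and ATF5 had overlapping ranges. In empty vector libraries it was ATF4 (101 ± 1.91), PPP1R15A (45.4 ± 2.235), CEBPG (31.8 ± 0.382), CEBPB (27.8 ± 0.699), TRIB3 (15.9 ± 0.6125), ATF3 (9.63 ± 0.517), CHAC1 (7.90 ± 0.502), ATF5 (4.22 ± 0.321) and DDIT3 (3.29 ± 0.319), with no overlap between neighbours. CEBPB thus stood above CEBPG per kilobase in overexpression libraries on average, though with overlapping ranges (52.2 to 61.3 for CEBPB and 48.1 to 53.5 for CEBPG), and below it in all empty vector libraries.

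Whether the regulators rose in proportion to ATF4 was compared through their counts per 100 ATF4 counts of the same library, a ratio that does not depend on scaling between libraries. TRIB3, CHAC1, ATF3 and CEBPB rose more than ATF4. TRIB3 had 48.0 ± 2.055 counts per 100 ATF4 counts in overexpression libraries and 21.6 ± 0.820 in empty vector libraries, a difference of 1.15 in the log2 ratio. CHAC1 had 11.9 ± 0.460 in overexpression libraries and 6.42 ± 0.434 in empty vector libraries (log2 ratio difference 0.90). For ATF3 the values were 26.45 ± 0.941 in overexpression libraries and 15.3 ± 0.902 in empty vector libraries (0.79). In all 3 genes the lowest overexpression library stood above the highest empty vector library. CEBPB had 28.3 ± 1.795 in overexpression libraries and 21.5 ± 0.525 in empty vector libraries (0.40). PPP1R15A rose slightly more than ATF4, with 61.5 ± 1.99 in overexpression libraries and 55.4 ± 2.60 in empty vector libraries (0.15). ATF5 rose less, with 3.95 ± 0.293 in overexpression libraries and 4.91 ± 0.307 in empty vector libraries (-0.31). Of 8 ratios compared, these 6 had groups without overlap and an exact two-sided permutation p of 0.00794. That is the smallest p that 5 against 5 libraries allow. How many other genes would give such a ratio was not computed. ATF4 itself rose by 0.63 on the log2 scale, so genes that did not change would also differ from it.

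The ratios of DDIT3 and CEBPG to ATF4 did not pass. DDIT3 had 1.91 ± 0.168 counts per 100 ATF4 counts in overexpression libraries and 1.70 ± 0.181 in empty vector libraries (log2 ratio difference 0.17, exact permutation p = 0.103). Without OE5 that difference was 0.22 with an exact permutation p of 0.03175. CEBPG had 56.9 ± 2.63 in overexpression libraries and 55.3 ± 1.14 in empty vector libraries (0.04, exact permutation p = 0.278), and leaving out single libraries gave 0.01 to 0.055. A p that misses the threshold does not show that these genes followed ATF4 exactly.

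**Figure D3:**
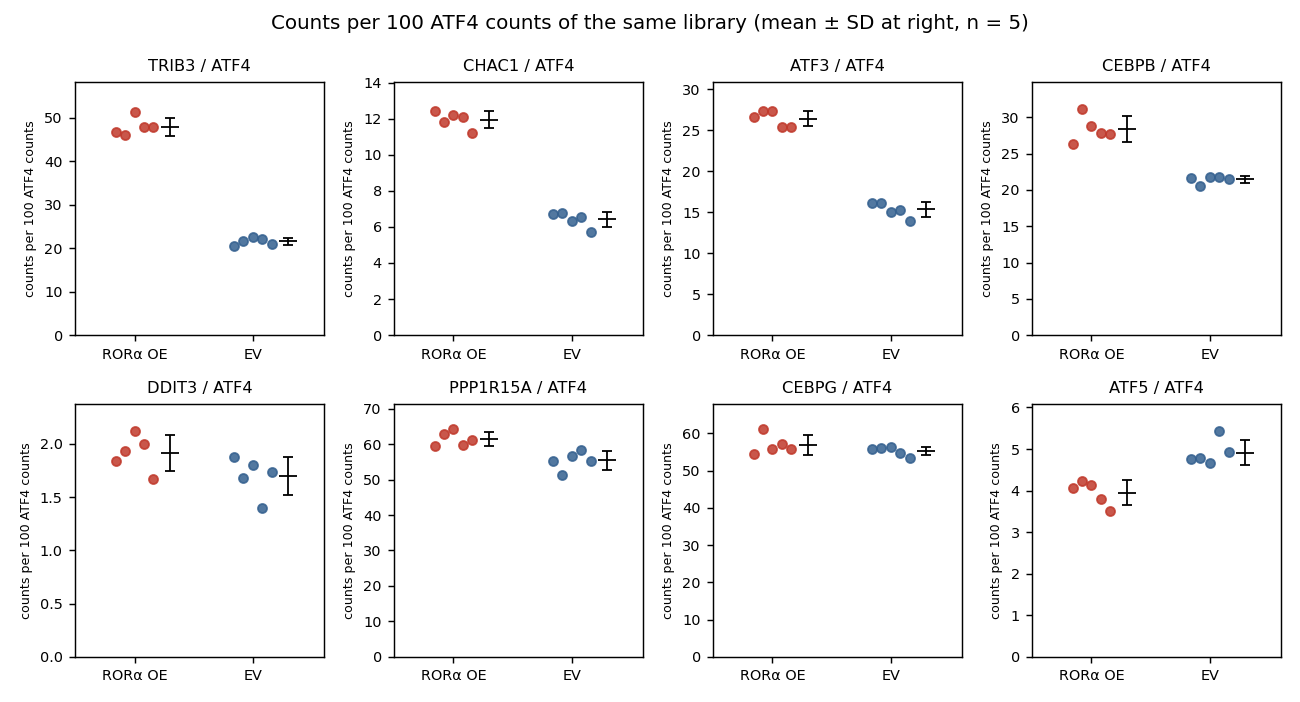
Counts of each of 8 regulators per 100 ATF4 counts of the same library, RORα overexpression (OE) left of empty vector (EV), with the mean ± SD (n = 5) beside the points. TRIB3 shows the widest separation (mean 48.0 in OE against 21.6 in EV), DDIT3 and CEBPG overlap, and ATF5 is lower in overexpression libraries (mean 3.95 in OE against 4.91 in EV).

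Promoters were searched for short motifs known from this pathway, since the 9 genes rose together. RefSeq promoters (GRCh38.p14, 250 bases before to 50 bases after the start) were matched by symbol for 9 regulators and 10198 genes of the table. Only 1 promoter per symbol was used, and both strands were read. The core of the C/EBP and ATF composite site, TGATGNAA, was found for 2 of 9 regulators, CHAC1 and ATF3, and for 1.70% of all 10198 promoters. The cyclic AMP response element TGACGTCA was found for 1 of 9, PPP1R15A, and for 3.31% of all promoters. Windows of 30 bases around these matches, all before the RefSeq start site, are shown 5′ to 3′ on the gene's strand with the motif in capitals. They lie at chr15:40953251-40953280 (CHAC1), chr1:212565205-212565234 (ATF3) and chr19:48872352-48872381 (PPP1R15A), all on the plus strand. The CHAC1 window lies inside the GENCODE 29 interval given above for the gene, which starts at 40952962, so it precedes only the RefSeq start.
CHAC1: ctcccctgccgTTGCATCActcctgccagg
ATF3: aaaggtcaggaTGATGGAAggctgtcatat
PPP1R15A: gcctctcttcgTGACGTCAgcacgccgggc
The CHAC1 match reads the composite core on the other strand, at bases -209 to -202 from the start, the ATF3 match lies at -191 to -184 and the PPP1R15A match at -58 to -51. The motif TGACGTGG, the endoplasmic reticulum stress element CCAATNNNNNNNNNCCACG and a strict form of the ROR response element were found in 0 of 9 windows, against 0.941%, 0.137% and 0.137% of all promoters. With motifs this rare, 0 of 9 was likely for each, so it does not show that RORα sites are absent. These matches describe letters only, and sequence outside these windows was not read.

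Among listed ATF4 and CHOP target genes, most also rose. The list was chosen with earlier results of these data known, and control of these genes by ATF4 or CHOP was not tested. Of 43 tested, from 45 listed, 37 rose, 3 fell and 3 did not pass, against 28.6% and 27.5% of all genes tested, with a median log2 fold change of 0.50. INHBE, an activin subunit gene of the liver stress response, had 16.8 ± 1.66 CPM in overexpression libraries and 2.36 ± 0.342 CPM in empty vector libraries (log2 fold change 2.83). ADM2, a peptide hormone gene, had 40.6 ± 1.36 CPM in overexpression libraries and 12.0 ± 1.21 CPM in empty vector libraries (1.76). SESN2, a leucine sensor that restrains mTORC1, had 88.9 ± 3.58 CPM in overexpression libraries and 28.9 ± 2.30 CPM in empty vector libraries (1.62). CCN4, a matricellular gene, fell, with 13 counts in all overexpression libraries and 165 in all empty vector libraries, 13.0-fold lower after scaling to library totals, with a 95% exact counting interval of 7.40 to 24.9. The other 2 that fell, chosen after their values were seen, were SLC38A2, an amino acid transporter, by 0.36 and NARS1, asparaginyl-tRNA synthetase, by 0.25 on the log2 scale. The 3 that did not pass, named likewise after their values were seen, were PYCR1 at -0.08, WIPI1 at 0.08 and the cystine transporter gene SLC7A11 at 0.00.

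The composite core TGATGNAA lay in 6 of the 32 promoters matched for these targets (18.8%), against 1.70% of all 10198 promoters. These genes were listed as ATF4 or CHOP targets, and the difference in share was not tested. For 3 of them, ASNS, HERPUD1 and AARS1, it lay before the start site, and the windows are shown as above for comparison with CHAC1, from chr7:97872458-97872487 (minus strand), chr16:56931955-56931984 (plus strand) and chr16:70289675-70289704 (minus strand).
ASNS: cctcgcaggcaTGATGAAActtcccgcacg
HERPUD1: gacgcggcgggTTGCATCAgcccgtgccca
AARS1: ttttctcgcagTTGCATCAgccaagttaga
HERPUD1 and AARS1 hold the same 8 letters as CHAC1. In the other 3 promoters, of SLC7A1, SLC3A2 and NARS1, the core lay after the start site, and NARS1 holds the letters of CHAC1 read on the other strand. SLC7A1 and SLC3A2, amino acid transporter genes, rose by 0.33 and 0.93 on the log2 scale, while NARS1 fell by 0.25, so genes with the core did not share 1 direction. These 6 targets were chosen by their motif. ASNS, asparagine synthetase, had 1.93 ± 0.269 CPM in overexpression libraries and 0.688 ± 0.235 CPM in empty vector libraries (log2 fold change 1.46, edgeR adjusted p = 8.76e-06), on 32 to 44 counts in overexpression libraries and 6 to 19 in empty vector libraries, and 44.6% of its exon bases are shared with other annotated genes. HERPUD1, of endoplasmic reticulum degradation, and AARS1, alanyl-tRNA synthetase, rose by 0.24 and 0.25 on the log2 scale, less than CHAC1 at 1.52.

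Upstream of ATF4 no gene listed reached a 2-fold rise, which only 3.28% of all genes tested reached, so lists this short may hold none. Of 10 genes for eIF2 kinases and their co-factors, 3 were higher, 3 lower and 4 not past the threshold (median log2 fold change 0.04), near the 28.6% higher and 27.5% lower of all genes tested. EIF2AK1, the heme and mitochondrial stress kinase HRI, rose by 0.17, with 129 ± 5.61 CPM in overexpression libraries and 115 ± 2.34 CPM in empty vector libraries. EIF2AK2, the double-stranded RNA kinase PKR, rose by 0.13 and DELE1, which carries the mitochondrial signal to HRI, by 0.10. EIF2AK3, the endoplasmic reticulum kinase PERK, stood at 20.9 ± 1.37 CPM in overexpression libraries and 20.3 ± 1.50 CPM in empty vector libraries (log2 fold change 0.05, edgeR adjusted p = 0.584). EIF2AK4, the amino acid sensing kinase GCN2, stood at 63.4 ± 2.57 CPM in overexpression libraries and 62.4 ± 2.09 CPM in empty vector libraries (0.02, edgeR adjusted p = 0.662). OMA1, the protease that releases DELE1, fell by 0.31, DNAJC3, an inhibitor of PERK and PKR, by 0.27, and IMPACT, an inhibitor of GCN2 activation, by 0.18. GCN1, the activator of GCN2, had a log2 fold change of -0.05, and PRKRA, the PKR activator PACT, one of 0.10, neither passing.

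Genes of eIF2 itself, of its exchange factor eIF2B and of re-initiation moved little. Of 13 tested, 2 were higher, 2 lower and 9 not past the threshold (median log2 fold change 0.03), where 28.6% of all genes tested were higher and 27.5% lower. EIF2B5, the catalytic subunit of eIF2B, rose by 0.32 and EIF5, the GTPase-activating factor for eIF2, by 0.10. DENR, a re-initiation factor that favours ATF4 translation, fell by 0.25 and EIF2B3 by 0.17. EIF2S1, which encodes the subunit of eIF2 that is phosphorylated, had 785 ± 18.3 CPM in overexpression libraries and 790.0 ± 12.3 CPM in empty vector libraries (log2 fold change -0.01, edgeR adjusted p = 0.799). The others lay between -0.09 for EIF2B4 and 0.16 for EIF2B2, with EIF2B1 at 0.08, EIF2A at 0.06, EIF2S2 at 0.04, EIF2D at 0.03, EIF2S3 at 0.01 and MCTS1, the partner of DENR, at 0.01. Of the phosphatase genes, PPP1R15B rose while the 3 catalytic subunits fell, PPP1CC by 0.26, PPP1CB by 0.25 and PPP1CA by 0.19 on the log2 scale.

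**Figure D4:**
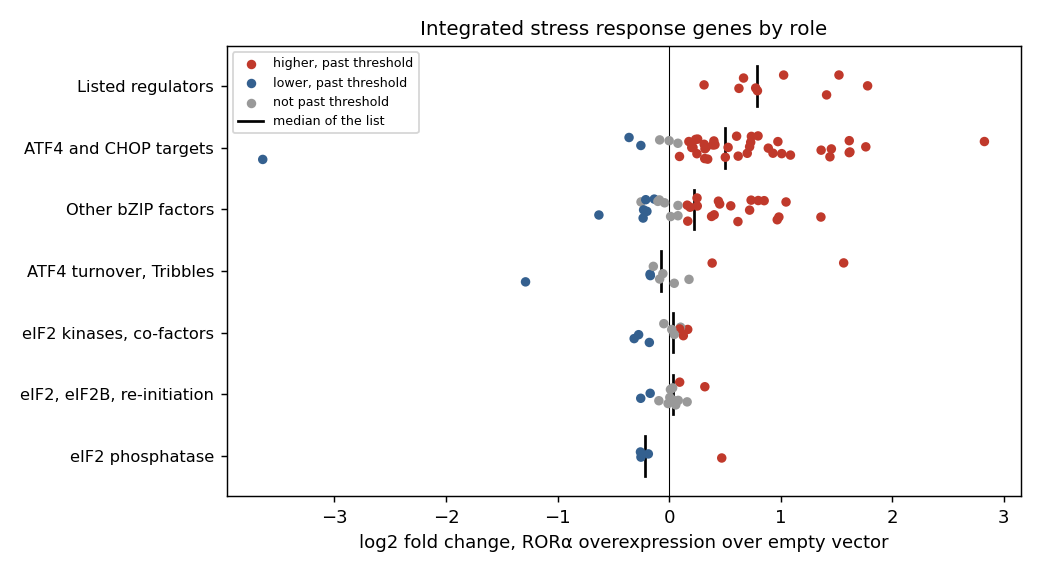
Log2 fold change (RORα overexpression over empty vector) of each gene tested, in rows by role, red where higher and blue where lower past the adjusted p of 0.05, grey otherwise, with a black bar at the row's median. The median is 0.79 for the regulators, 0.50 for ATF4 and CHOP targets, 0.22 for other bZIP factors, and between -0.22 and 0.04 for the other rows.

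Other bZIP factors can pair with ATF4, CHOP or ATF3. Of 32 tested, from 38 listed, 19 were higher, 6 lower and 7 not past the threshold (median log2 fold change 0.22), beside 28.6% higher and 27.5% lower among all genes tested. CEBPA rose by 1.36, with 4.33 ± 0.722 CPM in overexpression libraries and 1.67 ± 0.296 CPM in empty vector libraries, and 43.4% of its exon bases are shared with other genes. MAFF, a small MAF factor, rose by 1.05, NFIL3, a repressor, by 0.98, and BACH2 by 0.97 on the log2 scale. CEBPD, chosen after its values were seen, fell by 0.21 with overlapping groups, so the C/EBP genes tested did not all share the direction of CEBPB and CEBPG. Of 10 genes for ATF4 turnover and the other Tribbles pseudokinases, 2 were higher, 3 lower and 5 not past the threshold (median -0.07), close to the shares of all genes tested, 28.6% higher and 27.5% lower. TRIB1 rose by 1.57, with 31.4 ± 1.37 CPM in overexpression libraries and 10.6 ± 1.56 CPM in empty vector libraries. TRIB2 fell by 1.29, with 7.49 ± 0.994 CPM in overexpression libraries and 18.3 ± 1.67 CPM in empty vector libraries, so the 3 Tribbles genes did not share 1 direction. SIAH2, a ubiquitin ligase, rose by 0.39, and FBXW11, a ubiquitin ligase subunit that recognises phosphorylated ATF4, fell by 0.17, as did CUL1, a ligase scaffold chosen after its values were seen.

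The genes whose profiles over the 10 libraries were most like those of ATF4 and TRIB3 lay outside these lists. Likeness was the root mean square distance between log2 CPM profiles, each centred on its own mean, over 10 libraries in 2 groups, so it mostly reflects a similar fold change. Nearest to ATF4 were PODXL (0.025), NFKB1 (0.029) and STAMBP (0.034), against a median distance of 0.338 over all genes. Nearest to TRIB3 were ICAM1 (0.059), C1QTNF1 (0.078) and SERPINA1 (0.083), against a median of 0.894. PODXL had 1401 ± 16.8 CPM in overexpression libraries and 902 ± 15.3 CPM in empty vector libraries, and ICAM1 had 357 ± 10.6 CPM in overexpression libraries and 111 ± 4.91 CPM in empty vector libraries.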

How the data were processed

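Poly-A RNA of 10 SRA01-04 libraries was measured, 5 with the RORα plasmid and 5 with the empty vector, grouped by the labels. The submitters' processing notes name HISAT2 2.2.1, HTSeq and GRCh38. Per the file headers, the authors deposited raw read counts and FPKM values per gene and library. The annotation release, the HTSeq mode and how the table was reduced to its 12540 genes are not given in the sources used here. No protocol step in the labels marks strand.

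Counts were filtered by filterByExpr (minimum count 10, minimum total 15), which left 12520 genes, scaled with TMM and fitted with edgeR 4.0.16 in R 4.3.3 (glmQLFit, glmQLFTest, two-sided), with Benjamini-Hochberg adjustment over all genes tested and a threshold of 0.05. The fit was tested on simulated data. A standard error is the coefficient over the square root of F. Positions, exon unions and overlaps came from GENCODE 29 on GRCh38. Ratios to ATF4 were compared by exact permutation.

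Alternatives used DESeq2 1.42.0, other size factors and filters, limma 3.58.1 on log2(FPKM + 1) or log2(FPKM + 0.1), a replicate block and leaving out each library. Same-number libraries had residual correlations between -0.09 and 0.09 and were treated as unpaired. No replicates were copies (chi-square per degree of freedom 2.28 to 5.74 over 20 pairs). Genes named were all regulators, RORA, every eIF2 kinase, eIF2 and phosphatase gene, up to 4 called genes by size per list and the 3 nearest profiles of ATF4 and TRIB3. The regulators and lists were chosen with earlier results of these data known. Without molecular identifiers, intervals describe counting error alone.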

Additional observations from a re-analysis of the deposited data

How the results depend on the processing

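Under 20 alternatives (DESeq2, other scalings and count filters, limma on FPKM, the replicate block, and leaving out each library), all 9 regulators kept a higher level and passed the threshold, and 0 fell. The count of all genes higher was 2603 to 3675 and of genes lower 2464 to 3531 under the alternatives other than leaving out a library, against 3581 and 3445. Over all 20, the largest adjusted p of any regulator was 0.0041, for ATF5. The DDIT3 log2 fold change was 0.41 in limma on log2(FPKM + 1) and that of RORA 0.73, both low in FPKM so that the added 1 shrinks them. The median log2 fold change over all genes stayed between -0.0027 and 0.0095.

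Pairing libraries by replicate number (the replicate block) changed no call among the 9 regulators or for RORA in the edgeR fit. Over all genes it gave 3544 higher and 3406 lower, against 3581 and 3445 without the block. For the ratios to ATF4, 5 pairs allow no exact p under 0.0625, so the differences of 1.15 for TRIB3, 0.90 for CHAC1, 0.79 for ATF3, 0.40 for CEBPB, 0.15 for PPP1R15A and -0.31 for ATF5 could not pass with that block, each at p = 0.0625. The DDIT3 ratio difference ran from 0.11 to 0.22 when single libraries were left out and passed without OE5. Counting depth limits DDIT3 most, at 63 to 158 counts a library.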
